A study of Mus musculus with 9 samples.

Results

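Gefitinib, a kinase inhibitor aimed at the epidermal growth factor receptor (EGFR), was given alone to mice for 16 days, and the livers were compared with those of mice given saline over the same time. The comparison rested on 6 of the 9 samples of the series, 3 labelled gefitinib and 3 labelled saline, taken by those labels. The other 3 samples received glycyrrhizic acid with gefitinib and served only to estimate the spread between samples. RNA of whole liver was sequenced as 1 library per sample. The sources used here do not give dose, route, strain, sex or age. Nor do they say whether each sample was a different mouse, so the p-values reflect only how far these samples spread, and that spread may be technical.

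EGFR signals through the RAS and MAPK cascade and is abundant on hepatocytes, which make up most of the liver mass. The rest of the organ is built from the fenestrated endothelium of the sinusoids, resident macrophages (Kupffer cells), stellate cells, bile duct cells and passing leukocytes. Liver RNA is therefore dominated by hepatocyte transcripts for secreted proteins and metabolic enzymes, and transcripts of the other cells are read at low levels.

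Total counts of the 6 libraries ranged from 56440871 to 60207688, and between 20579 and 21052 genes had at least 1 count. Levels are given as the deposited FPKM, fragments scaled to transcript length and library depth, in the order of samples 1, 2 and 3. Fold changes and their standard errors (SE) were estimated on the counts by edgeR's quasi-likelihood test, and its p-values were adjusted over all tested genes by the Benjamini-Hochberg method. A gene was called changed at an adjusted p under 0.05. Albumin transcripts, Alb, had 21159.9, 22045 and 21689.6 FPKM with gefitinib and 20623, 22683 and 18685 FPKM with saline. Skeletal muscle transcripts set gefitinib sample 1 apart. The 20 muscle genes summed to 93.7, 6.48 and 4.57 FPKM with gefitinib and 6.26, 5.53 and 7.25 FPKM with saline. Muscle actin, Acta1, alone had 14.8, 0.0423 and 0.0376 FPKM with gefitinib and 0.0182, 0 and 0.03701 FPKM with saline. Of the 20 muscle genes 0 were called by edgeR, 16 at an unadjusted p under 0.05, and 4 higher and 0 lower by DESeq2. Their median log2 fold change was 6.97, and without gefitinib sample 1 it was -0.15. The 20 genes and those at least 10 times higher in gefitinib sample 1 than in both other gefitinib samples numbered 303. With these left out, 214 genes were called, among them each of the 206 called with them. The genes left out held no called gene, and gefitinib sample 1 stayed in that fit, so it does not show that sample's weight. Without gefitinib sample 1, 62 of the 206 were still called. Without gefitinib sample 2 or gefitinib sample 3, 30 and 46 of them were.

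Of 18113 tested genes, 206 were called, 99 higher and 107 lower with gefitinib. The shares called were 1.14% in either direction, 0.547% higher and 0.591% lower. DESeq2 called more of the same 18113 genes, 864 in all, 454 higher and 410 lower. The median log2 fold change over all tested genes was -0.00. The 206 called genes had no overlap between the 3 gefitinib and the 3 saline samples. Such separation was much more common than a call, with 9.71% of tested genes higher in all 3 gefitinib samples and 10.2% lower. The rises were 1.41-fold at the least and 2.49-fold at the median, and 26 of the 99 were 4-fold or more. The falls were 1.43-fold at the least and 2.58-fold at the median, and 13 of the 107 were 4-fold or more. At 50 FPKM and above, 11 of 778 genes were higher and 7 were lower. Between 0.5 and 2 FPKM, 19 of 4369 genes were higher and 34 were lower. Protein-coding genes made up 96 of the rises and 102 of the falls. Long noncoding genes gave 1 rise and 3 falls among 2081 tested.

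**Figure D1:**
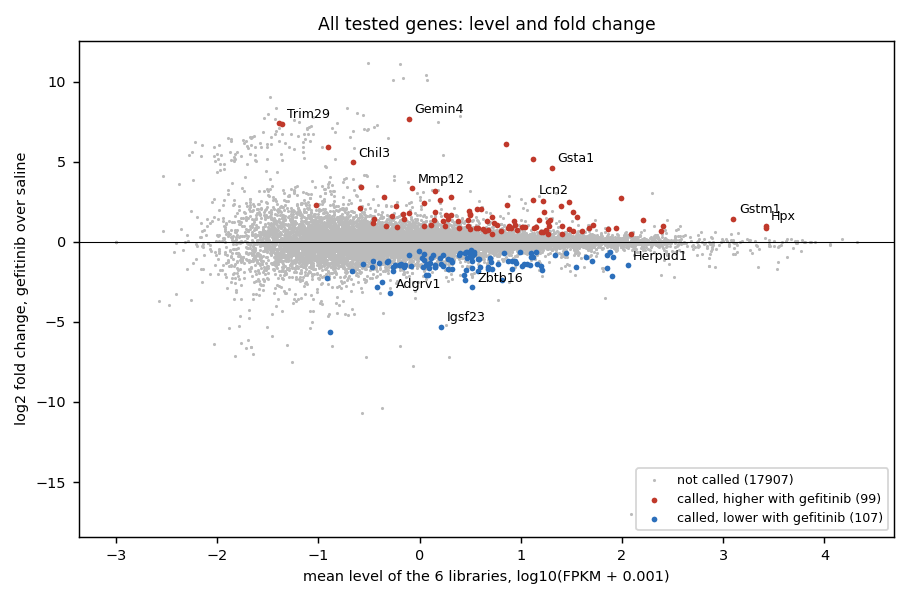
Each point is 1 tested gene, with its mean level over the 6 samples, log10(FPKM + 0.001), on the x axis and its log2 fold change, gefitinib over saline, on the y axis. Red points are the 99 genes called higher with gefitinib, blue points the 107 called lower, and grey points the rest.

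The cell type marker lists did not move together. The 16 hepatocyte identity genes had a median log2 fold change of -0.05, with 0 called by edgeR, 2 at an unadjusted p under 0.05, and 0 higher and 1 lower by DESeq2. Their summed level was 66464, 66119.7 and 63500.0 FPKM with gefitinib and 68077, 65808 and 64054 FPKM with saline. The 18 periportal genes had a median of -0.11 and 0 calls, 5 at an unadjusted p under 0.05, and 0 higher and 0 lower by DESeq2. Among the 20 pericentral genes 1 was called. Cldn2, a pore-forming claudin of tight junctions, had 19.7, 20.7 and 20.4 FPKM with gefitinib and 14.8, 10.9 and 12.4 FPKM with saline, a rise of 1.55-fold. The pericentral enzyme Cyp2e1 had 2667, 2769.8 and 2595 FPKM with gefitinib and 2615, 2964 and 3684 FPKM with saline, and these ranges overlapped. Summed endothelial levels were lower in all 3 gefitinib samples than in any saline sample and so were summed stellate cell levels, at 126, 136 and 120.3 FPKM with gefitinib and 184, 169.8 and 146 FPKM with saline, and the few adipocyte and acinar genes. Summed neutrophil, B cell and mesothelial levels were higher in all 3 gefitinib samples. The mesothelial sum was 229, 201 and 218 FPKM with gefitinib and 166, 129.6 and 128 FPKM with saline, of which Krt8 alone held 99.2, 88.4 and 95.8 FPKM with gefitinib and 62.3, 49.9 and 43.01 FPKM with saline, and the list's median log2 fold change was -0.85. The Kupffer cell, lymphatic and smooth muscle lists overlapped between groups in their summed levels. In bulk liver RNA, fewer cells of a type and less RNA per cell cannot be told apart.

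**Figure D2:**
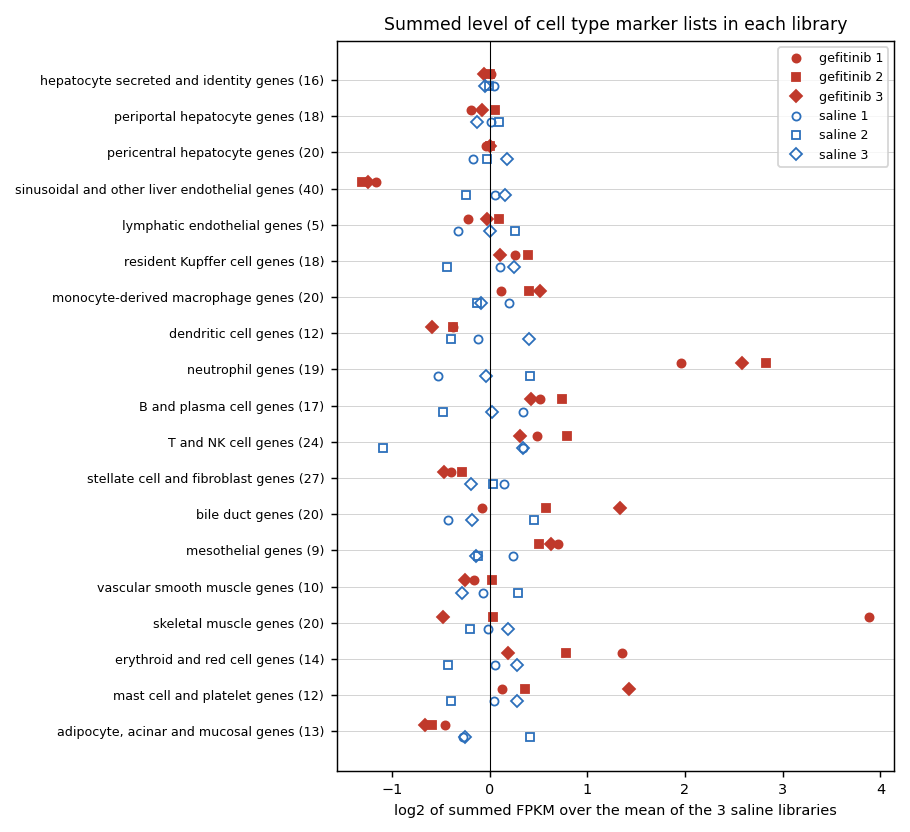
Each row is 1 marker list, with the number of genes found in the table in parentheses, and each point is 1 sample. The x axis is the log2 of the list's summed FPKM over the mean of the 3 saline samples. Filled red symbols (gefitinib) lie above open blue symbols (saline) in each row. The endothelial, stellate and adipocyte or acinar lists are lower, and the neutrophil, B cell and mesothelial lists higher, in all 3 gefitinib samples than in any saline sample, and the skeletal muscle list stands out only in gefitinib sample 1.

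Endothelial genes held the largest block of falls. The sinusoidal endothelium filters blood through open pores, clears waste molecules through scavenger receptors and sends Wnt and BMP signals to hepatocytes. Of the 40 tested endothelial genes, 22 fell and 0 rose, against 0.591% of all tested genes lower. DESeq2 called 31 lower and 0 higher. The list's median log2 fold change was -1.32. In all, 35 of the 40 were lower in all 3 gefitinib samples than in every saline sample, against 10.2% of all tested genes. The summed level of the 40 genes was 71.3, 64.7 and 67.5 FPKM with gefitinib and 166, 135 and 178 FPKM with saline. Without gefitinib sample 1, 11 of the 40 genes fell, and the median was -1.40. Leaving out other samples left 5 (without gefitinib sample 2), 8 (gefitinib sample 3), 13 (saline sample 1), 12 (saline sample 2) and 9 (saline sample 3) genes called lower, and 0 higher in each.

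Among the endothelial scavenger and clearance receptors, Fcgr2b, which takes up immune complexes, had 2.96, 3.02 and 3.34 FPKM with gefitinib and 8.32, 6.07 and 7.02 FPKM with saline, a 2.36-fold fall (log2 -1.24 ± 0.16, adjusted p = 0.011). Clec4g, a lectin of sinusoidal cells, had 7.72, 6.39 and 6.15 FPKM with gefitinib and 17.6, 15.8 and 20.5 FPKM with saline and fell 2.74-fold (adjusted p = 0.045). The receptors Stab2 and Lyve1 of the same list were also called lower. Stab1, a hyaluronan and waste receptor, had 2.65, 3.97 and 2.68 FPKM with gefitinib and 5.899, 3.88 and 7.07 FPKM with saline and did not pass, with 1 gefitinib sample inside the saline range. Mrc1, the mannose receptor shared by sinusoidal and Kupffer cells, had 2.61, 2.996 and 2.52 FPKM with gefitinib and 4.82, 3.33 and 5.68 FPKM with saline and did not pass. The groups of Fcgr2b, Clec4g and Mrc1 did not overlap.

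Of 5 receptor tyrosine kinases of the vessel wall in the list 4 fell. Kdr, the main receptor of vascular endothelial growth factor (VEGF), had 1.02, 0.928 and 1.06 FPKM with gefitinib and 3.54, 2.61 and 3.31 FPKM with saline, a 3.24-fold fall (adjusted p = 0.0388). Flt4, the receptor of VEGF-C and VEGF-D, had 0.685, 0.874 and 0.643 FPKM with gefitinib and 2.05, 1.31 and 2.06 FPKM with saline and fell 2.53-fold (adjusted p = 0.0481). Tie1, the partner of the angiopoietin receptor Tek, had 1.37, 0.908 and 1.41 FPKM with gefitinib and 2.92, 2.61 and 2.15 FPKM with saline and fell 2.13-fold (adjusted p = 0.0498). Tek itself had 0.587, 0.591 and 0.653 FPKM with gefitinib and 1.81, 1.69 and 2.09 FPKM with saline. Flt1, a decoy receptor of VEGF, had 0.138, 0.0959 and 0.161 FPKM with gefitinib and 0.361, 0.251 and 0.472 FPKM with saline and did not pass. Levels of each of these 5 kinases were lower in the 3 gefitinib samples than in any saline sample.

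Several adhesion and junction proteins of endothelium fell. Pecam1, the adhesion molecule CD31, had 0.713, 0.826 and 0.661 FPKM with gefitinib and 2.18, 1.702 and 2.39 FPKM with saline and fell 2.93-fold. Eng, a co-receptor of the BMP family, had 4.89, 5.33 and 5.17 FPKM with gefitinib and 11.1, 10.2 and 12.7 FPKM with saline and fell 2.27-fold (adjusted p = 0.0202). Esam, an endothelial adhesion molecule, had 0.907, 1.36 and 1.54 FPKM with gefitinib and 3.02, 2.52 and 3.19 FPKM with saline and fell 2.37-fold (adjusted p = 0.0267). Jam2, a junctional adhesion molecule counted in the junction list, had 0.529, 0.453 and 0.672 FPKM with gefitinib and 1.22, 1.699 and 1.904 FPKM with saline and fell 3.01-fold. VE-cadherin, Cdh5, had 1.61, 0.985 and 1.34 FPKM with gefitinib and 2.95, 1.86 and 2.503 FPKM with saline and did not pass.

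Among signals and secreted products of endothelium, Bmp2, F8 and Dnase1l3 fell. Bmp2, a bone morphogenetic protein that drives hepcidin in hepatocytes, had 0.772, 0.914 and 1.07 FPKM with gefitinib and 3.01, 2.13 and 3.58 FPKM with saline, a 3.26-fold fall (adjusted p = 0.0118). Wnt2, a central-vein Wnt ligand, had 0.168, 0.296 and 0.431 FPKM with gefitinib and 1.16, 0.591 and 1.56 FPKM with saline (log2 -1.92 ± 0.46) and did not pass. Rspo3, a Wnt enhancer, had 0.425, 0.921 and 0.514 FPKM with gefitinib and 0.928, 1.004 and 0.943 FPKM with saline and did not pass. F8, coagulation factor VIII, had 0.195, 0.219 and 0.276 FPKM with gefitinib and 0.588, 0.558 and 0.543 FPKM with saline and fell 2.53-fold (adjusted p = 0.0238). Dnase1l3, a secreted nuclease, had 2.71, 1.79 and 2.38 FPKM with gefitinib and 7.297, 6.201 and 8.02 FPKM with saline and fell 3.21-fold. Axin2, a Wnt target of hepatocytes, had 0.678, 1.09 and 1.11 FPKM with gefitinib and 0.818, 1.29 and 2.196 FPKM with saline. Lgr5, a receptor of Rspo proteins and itself a Wnt target, had 0.191, 0.402 and 0.447 FPKM with gefitinib and 0.156, 0.257 and 0.266 FPKM with saline. The groups of both overlapped.

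Further falls in the list concerned a channel, trafficking proteins and orphan receptors. Aqp1 (ENSMUSG00000004655, chromosome 6, 55336432 to 55348555, GRCm38), a water channel, had 7.93, 6.86 and 7.76 FPKM with gefitinib and 26.3, 19.7 and 27.98 FPKM with saline, a 3.37-fold fall (log2 -1.75 ± 0.26, adjusted p = 0.0177). Gpr182, an atypical chemokine receptor of sinusoidal cells, had 1.65, 1.36 and 1.95 FPKM with gefitinib and 5.64, 3.92 and 5.205 FPKM with saline and fell 3.05-fold. Ehd3, a membrane-trafficking ATPase, had 2.396, 2.73 and 2.23 FPKM with gefitinib and 6.99, 6.46 and 7.41 FPKM with saline and fell 2.92-fold. Gpihbp1, which anchors lipoprotein lipase to the capillary wall, had 0.862, 1.21 and 1.13 FPKM with gefitinib and 4.104, 3.01 and 6.13 FPKM with saline and fell 4.26-fold. These 4 genes did not overlap between groups. Plxnc1, a semaphorin receptor, fell 2.96-fold, Oit3 fell 3.51-fold, Adgrl4, an adhesion receptor, fell 2.81-fold and Ushbp1 fell 1.73-fold. The list had 1 positive value. Cd36, a fatty acid transporter that hepatocytes and macrophages also make, had 9.28, 2.17 and 4.401 FPKM with gefitinib and 2.49, 1.66 and 1.91 FPKM with saline, and its groups overlapped.

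**Figure D3:**
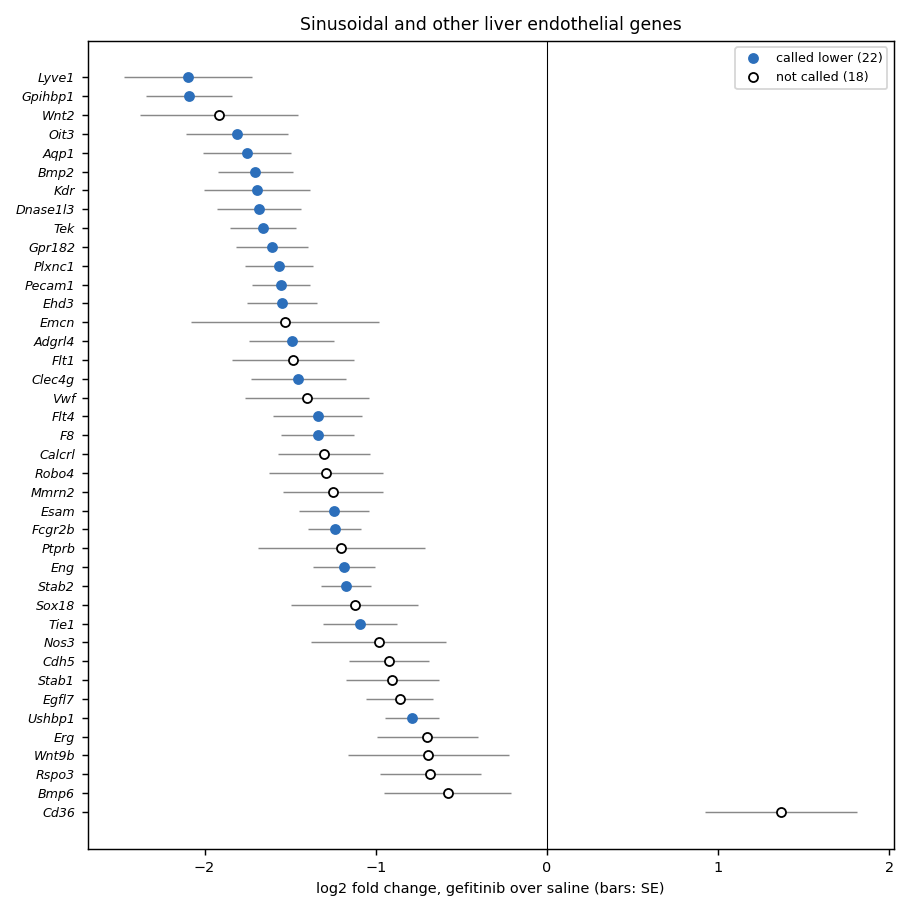
The 40 endothelial genes are ordered by log2 fold change, gefitinib over saline, on the x axis, with SE as bars. Filled blue points are the 22 genes called lower and open points the 18 not called. Cd36 is the only point right of 0.

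Several of the falls outside the lists were genes best known from vessels, named here after their values were seen. Cd300lg, a capillary receptor that leukocytes bind, had 1.3, 1.03 and 1.64 FPKM with gefitinib and 4.09, 3.64 and 5.46 FPKM with saline, a 3.42-fold fall (adjusted p = 0.0134). Tspan7, a tetraspanin, had 0.655, 0.868 and 0.779 FPKM with gefitinib and 2.24, 1.49 and 2.51 FPKM with saline and fell 2.79-fold (adjusted p = 0.0134). Cd93, a receptor of endothelial and myeloid cells, fell 2.38-fold. Rasip1 and Arhgef15, regulators of small GTPases in endothelial cells, fell 2.61-fold and 2.68-fold. Fgd5, another exchange factor of endothelium, fell 2.73-fold. Rasip1 overlaps the coding gene Izumo1 on the same strand, and the counts cannot separate reads shared by both.

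Stellate cell and matrix genes held few calls. Of 27 tested stellate and fibroblast genes 0 were called by edgeR, 12 at an unadjusted p under 0.05, and 1 higher and 5 lower by DESeq2. Their median log2 fold change was -0.44, and 13 were lower in all 3 gefitinib samples, against 10.2% of all tested genes. Lrat, the enzyme that stores vitamin A, had 0.825, 1.22 and 1.14 FPKM with gefitinib and 1.77, 1.94 and 1.21 FPKM with saline. Decorin, Dcn, had 10.3, 13.8 and 11.4 FPKM with gefitinib and 19.5, 17.04 and 14.9 FPKM with saline. Neither passed, and the groups of Lrat overlapped while those of Dcn did not. Collagen Col1a1 had 0.949, 1.25 and 0.799 FPKM with gefitinib and 0.811, 0.713 and 0.592 FPKM with saline, with overlap. Of 64 matrix and fibrosis genes 2 fell and 1 rose, with a median of -0.38. Falls in this list numbered 0 without gefitinib sample 1, gefitinib sample 2, gefitinib sample 3 or saline sample 3, and 1 without saline sample 1. Sparc, a collagen-binding glycoprotein, had 8.47, 9.09 and 9.01 FPKM with gefitinib and 21.9, 13.1 and 14.3 FPKM with saline, a 1.902-fold fall (adjusted p = 0.0288). Hspg2, the basement membrane proteoglycan perlecan, had 0.855, 0.861 and 0.738 FPKM with gefitinib and 1.61, 1.06 and 1.47 FPKM with saline and fell 1.73-fold (adjusted p = 0.0454). Pxdn, a peroxidase that crosslinks collagen IV, was in no list and fell 2.703-fold, with 0.339, 0.376 and 0.345 FPKM with gefitinib and 1.15, 0.807 and 0.825 FPKM with saline. Among 60 genes of the Wnt, Notch, BMP, Hedgehog and Hippo pathways, Bmp2 was the 1 call. Of the 60, 18 were lower in all 3 gefitinib samples and 2 higher, against 10.2% and 9.71% of all tested genes. Id1, a BMP target, had 2.08, 1.2 and 3.04 FPKM with gefitinib and 5.93, 6.84 and 3.31 FPKM with saline. Hes1, a Notch target, had 4.11, 2.19 and 4.17 FPKM with gefitinib and 8.14, 6.96 and 5.34 FPKM with saline. Neither passed, and both were lower in all 3 gefitinib samples.

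Some genes of infiltrating macrophages rose with gefitinib, and no gene of resident Kupffer cells was called by edgeR. Of 20 monocyte-derived macrophage genes 5 rose and 0 fell, against 0.547% of all tested genes higher, with a median log2 fold change of 1.24. Lgals3, the lectin galectin-3, had 5.18, 8.24 and 4.47 FPKM with gefitinib and 1.58, 0.923 and 1.695 FPKM with saline, a 4.11-fold rise (log2 2.04 ± 0.25, adjusted p = 0.011). Cd63, a tetraspanin of lysosomes, had 3.91, 10.99 and 4.88 FPKM with gefitinib and 1.84, 1.34 and 1.46 FPKM with saline and rose 4.09-fold (adjusted p = 0.0248). Mmp12, macrophage elastase, had 1.39, 2.37 and 0.861 FPKM with gefitinib and 0.171, 0.172 and 0.0896 FPKM with saline and rose 10.1-fold. Gpnmb, a glycoprotein of lipid-laden macrophages, had 0.802, 1.36 and 0.786 FPKM with gefitinib and 0.243, 0.171 and 0.171 FPKM with saline and rose 4.78-fold. Chil3, a chitinase-like protein of activated macrophages, had 0.414, 0.6197 and 0.247 FPKM with gefitinib and 0.0327, 0 and 0 FPKM with saline, and rested on few counts in saline. The list had 4 calls without gefitinib sample 1, and 3 without saline sample 2 or saline sample 3. Summed levels of the list overlapped between groups, at 132, 159.8 and 173 FPKM with gefitinib and 139, 111 and 114 FPKM with saline. Fn1, fibronectin, which hepatocytes also secrete, made up 80.98, 82.5 and 95.8 FPKM with gefitinib and 74.7, 74.1 and 71.4 FPKM with saline of these sums.

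Among 18 Kupffer cell genes 0 were called by edgeR, 5 at an unadjusted p under 0.05, and 2 higher and 2 lower by DESeq2, and the median log2 fold change was 0.16. Clec4f, a lectin of Kupffer cells alone in mice, had 38.9, 48.8 and 36.2 FPKM with gefitinib and 35.01, 23.9 and 44.3 FPKM with saline. Marco, a scavenger receptor, had 4.303, 5.46 and 5.43 FPKM with gefitinib and 1.54, 0.715 and 1.43 FPKM with saline and an adjusted p of 0.0735. Some single genes known from macrophages or lysosomes, in neither list and picked because they were called, follow. The annotated lysosome pathway, also picked after its values were seen, had 4 rises and 0 falls among 119 tested genes. Of all tested genes 0.547% were called higher and 0.591% lower. The 4 were Atp6v0d2, Cd63, Cd68 and Ctsd, each also given singly, so this count repeats them. Mpeg1, the pore-forming perforin-2 of phagocytes, had 10.2, 9.59 and 11.1 FPKM with gefitinib and 5.602, 5.02 and 5.93 FPKM with saline, a 1.81-fold rise (adjusted p = 0.0174). Capg, an actin-capping protein, had 0.981, 1.63 and 1.07 FPKM with gefitinib and 0.301, 0.294 and 0.411 FPKM with saline and rose 3.44-fold (adjusted p = 0.011). Cd68, a lysosomal protein of macrophages, rose 1.999-fold, Cd52 2.001-fold, Myo1f 2.63-fold and Hk3, the hexokinase of myeloid cells, 2.01-fold. Lysosomal cathepsin D, Ctsd, had 149, 147 and 142 FPKM with gefitinib and 107, 94.7 and 99.1 FPKM with saline and rose 1.41-fold. The proton pump subunit Atp6v0d2 had 2.07, 2.48 and 1.42 FPKM with gefitinib and 0.799, 0.647 and 0.821 FPKM with saline and rose 2.55-fold. These 2 were the calls among 60 apoptosis and autophagy genes. Of 50 myeloid immunoreceptors, 1 rose and 1 fell, with a median of 0.54. Lilr4b, a leukocyte receptor of that list, had 3.28, 3.62 and 3.87 FPKM with gefitinib and 0.452, 0.406 and 0.629 FPKM with saline and rose 6.93-fold (adjusted p = 0.00024). Its close paralog Lilrb4a had 3.73, 5.61 and 5.398 FPKM with gefitinib and 1.45, 0.222 and 2.82 FPKM with saline, and reads of the pair may be shared.

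Neutrophil transcripts were higher in sum but few passed singly. The 19 genes summed to 36.8, 67.3 and 56.9 FPKM with gefitinib and 6.56, 12.6 and 9.26 FPKM with saline. The lowest gefitinib sample was above the highest saline sample. Of 16 tested members 1 rose and 9 were higher in all 3 gefitinib samples, against 9.71% of all tested genes. The median log2 fold change was 2.74. S100a8, a calcium-binding protein of neutrophils, had 2.85, 7.13 and 7.13 FPKM with gefitinib and 0.296, 0.833 and 0.623 FPKM with saline. Its partner S100a9 had 7.83, 18.3 and 14.5 FPKM with gefitinib and 1.85, 2.34 and 1.13 FPKM with saline. The granule protein Camp had 0.581, 1.64 and 0.947 FPKM with gefitinib and 0, 0.0628 and 0.121 FPKM with saline. None of these 3 passed, and none overlapped between groups. Of the 19 genes, 2, 1 and 2 were at 0 with gefitinib and 8, 5 and 7 with saline. The 1 call, Lcn2, is also an acute phase product of hepatocytes. The part of these cells in the higher levels of macrophage and acute phase genes was not tested.

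Other blood cell lists had no call by edgeR. Hemoglobin and other red cell genes summed to 2098, 1414 and 935 FPKM with gefitinib and 854, 611 and 997 FPKM with saline, with overlap between groups and 0 of 12 called, 7 at an unadjusted p under 0.05, and 3 higher and 0 lower by DESeq2. The 17 B and plasma cell genes summed to 73.3, 86.05 and 69 FPKM with gefitinib and 65.1, 36.98 and 52.1 FPKM with saline, with no overlap, a median of 0.61 and 0 calls, 2 at an unadjusted p under 0.05, and 0 higher and 0 lower by DESeq2. The 23 tested T and NK cell genes had a median of 0.45 and 0 calls, 1 at an unadjusted p under 0.05, and 0 higher and 0 lower by DESeq2. Igkv15-103, an immunoglobulin light chain segment, had 13, 17 and 28 counts with gefitinib and 0 in every saline sample, and did not pass.

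Among interferon-stimulated genes 3 rose, and many more were separated without passing. Of 58 tested genes 3 rose and 0 fell, against 0.547% and 0.591% of all tested genes. DESeq2 called 15 higher and 0 lower. The median log2 fold change was 0.44, and 20 were higher in all 3 gefitinib samples with 0 lower, against 9.71% and 10.2% of all tested genes. Apol9a, an apolipoprotein L, had 10.1, 13.3 and 13.7 FPKM with gefitinib and 4.99, 4.41 and 4.99 FPKM with saline, a 2.49-fold rise (log2 1.31 ± 0.21, adjusted p = 0.0229). Ifi47, an interferon-gamma-induced GTPase whose gene overlaps the coding gene Olfr56 on the same strand, passed. Ifi47 had 10.4, 11.3 and 14.4 FPKM with gefitinib and 7.199, 3.93 and 5.56 FPKM with saline. Its kin Igtp had 24.9, 27.1 and 24.8 FPKM with gefitinib and 17.2, 8.82 and 10.9 FPKM with saline. Irgm2, of the same GTPase group, had 10.98, 11.2 and 11.5 FPKM with gefitinib and 7.81, 4.58 and 5.24 FPKM with saline. These 2 did not pass, although neither overlapped between groups. Zbp1, a sensor of left-handed nucleic acid, had 2.93, 3.09 and 2.42 FPKM with gefitinib and 1.01, 0.449 and 1.09 FPKM with saline and rose 3.21-fold. The type I interferon targets Rsad2, Ifit1 and Isg15 had overlapping groups, with Isg15 at 6.91, 9.97 and 7.25 FPKM with gefitinib and 9.34, 4.098 and 3.47 FPKM with saline. The list had 1 call without gefitinib sample 1, 4 without saline sample 1, and 0 without gefitinib sample 2, gefitinib sample 3, saline sample 2 or saline sample 3.

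A few genes of antigen presentation and inflammatory cell death rose. Nlrc5, the transactivator of MHC class I genes, had 2.75, 3.34 and 3.43 FPKM with gefitinib and 1.498, 1.72 and 1.79 FPKM with saline, a 1.83-fold rise (adjusted p = 0.0377), and was the 1 call among 34 presentation genes, whose median was 0.37. Psme1, a proteasome activator subunit, had 39.3, 40.5 and 40.5 FPKM with gefitinib and 27.6, 24.8 and 21.7 FPKM with saline and rose 1.57-fold (adjusted p = 0.0296). Ubd, a ubiquitin-like modifier induced by cytokines, had 3.395, 2.47 and 1.898 FPKM with gefitinib and 0.212, 0.174 and 0.426 FPKM with saline and rose 9.11-fold (log2 3.19 ± 0.43, adjusted p = 0.0137). Icam1, an adhesion molecule for leukocytes, had 4.76, 5.09 and 4.78 FPKM with gefitinib and 3.13, 2.04 and 2.59 FPKM with saline and rose 1.83-fold (adjusted p = 0.0276). Mlkl, the executor of necroptosis, had 1.99, 2.06 and 1.33 FPKM with gefitinib and 0.8401, 0.876 and 0.748 FPKM with saline and rose 2.103-fold (adjusted p = 0.0481). Icam1 and Mlkl were the 2 calls among 59 chemokine, cytokine and NF-kB feedback genes. The list had 1 call without gefitinib sample 3 or saline sample 1, and 0 without any other of the 6 samples.

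Acute phase proteins, which hepatocytes secrete under inflammatory cytokines, held the most rises of the function lists by edgeR on all samples. Of 38 tested genes 7 rose and 0 fell, against 0.547% and 0.591% of all tested genes. DESeq2 called 10 higher and 2 lower, fewer than the 15 interferon-stimulated genes it called higher. Of all 18113 tested genes it called 454 higher and 410 lower. The list had a median log2 fold change of 0.19. Lrg1 (ENSMUSG00000037095, chromosome 17, 56119678 to 56122001), a leucine-rich glycoprotein, had 314, 395 and 309.7 FPKM with gefitinib and 152, 173 and 171 FPKM with saline, a 1.98-fold rise (log2 0.99 ± 0.14, adjusted p = 0.0163). Hpx, the plasma carrier of heme, had 2551, 4042 and 3991 FPKM with gefitinib and 1859, 1408 and 1877 FPKM with saline and rose 1.99-fold (adjusted p = 0.0423). Haptoglobin, Hp, the carrier of free hemoglobin, had 3006, 3721 and 3484 FPKM with gefitinib and 1950.5, 1544 and 2058 FPKM with saline. Hpx and Hp had the highest FPKM of the 206 called genes. Orm2, an acid glycoprotein, had 23.9, 49.7 and 49.6 FPKM with gefitinib and 4.19, 6.08 and 14.9 FPKM with saline and rose 4.68-fold (adjusted p = 0.0481). Its reads may be shared with Orm1, which had 919, 1063 and 1052 FPKM with gefitinib and 554, 599.7 and 772 FPKM with saline and did not pass. Steap4, a metalloreductase, had 20.7, 23.1 and 23.3 FPKM with gefitinib and 15.6, 12.6 and 10.7 FPKM with saline and rose 1.67-fold (adjusted p = 0.0393).

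The rest of the acute phase list was mixed. Lcn2, which binds bacterial siderophores, had 18.9, 28.9 and 21.6 FPKM with gefitinib and 1.34, 5.76 and 3.49 FPKM with saline. Saa2, a serum amyloid A, had 19.8, 27.9 and 36.7 FPKM with gefitinib and 3.57, 3.08 and 7.42 FPKM with saline. Saa1 had 55.1, 69.6 and 110.2 FPKM with gefitinib and 18.3, 35.8 and 34.6 FPKM with saline, higher in all 3 gefitinib samples without passing. Fgb, a fibrinogen chain, had 1076, 1044 and 1296 FPKM with gefitinib and 949, 1034 and 928 FPKM with saline and did not pass. Crp, C-reactive protein, had 76.3, 59.3 and 70.02 FPKM with gefitinib and 73.5, 71.8 and 63.5 FPKM with saline, with overlap. Il1r1, the receptor of interleukin 1, had 8.08, 10.7 and 8.63 FPKM with gefitinib and 10.7, 26.7 and 28.6 FPKM with saline and did not pass. Fgl1, a fibrinogen-like liver secretory protein in no list, had 192, 295 and 217 FPKM with gefitinib and 91.9, 60.5 and 109 FPKM with saline and rose 2.604-fold. Rises in the list numbered 4 without gefitinib sample 1, 0 without gefitinib sample 2, 1 without gefitinib sample 3, 6 without saline sample 1, 2 without saline sample 2 and 3 without saline sample 3. Leaving out saline sample 1 or saline sample 2 also gave 1 fall.

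In drug metabolism the rises gathered in the glutathione transferases. These enzymes join glutathione to reactive compounds, and many are induced through the receptors CAR and PXR, which sense foreign compounds, or the stress factor NRF2. Of 24 tested transferases 5 rose and 0 fell, against 0.547% and 0.591% of all tested genes. In all 3 gefitinib samples 10 were higher and 0 lower, against 9.71% and 10.2% of all tested genes. Their median log2 fold change was 0.36. Gstm1, the most abundant of the called ones, had 1259, 1778 and 2553 FPKM with gefitinib and 760.2, 719 and 498 FPKM with saline, a 2.73-fold rise (log2 1.45 ± 0.29, adjusted p = 0.0497). Gsta2 had 44.4, 58.01 and 53.9 FPKM with gefitinib and 6.81, 18.4 and 16.2 FPKM with saline and rose 3.61-fold (adjusted p = 0.0423). Gsta1 had 11.8, 73.4 and 31.4 FPKM with gefitinib and 0.8303, 1.98 and 1.63 FPKM with saline. Gstm3 had 72.8, 224 and 219 FPKM with gefitinib and 23.6, 36.4 and 15.2 FPKM with saline. Both had their lowest gefitinib value in sample 1, still above every saline sample. Gstm1 and Gstm3 lie on chromosome 3, and Gsta1, Gsta2 and the gene model Gm3776 on chromosome 9.

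Mgst3, a membrane-bound transferase outside both clusters, had 12.4, 15.1 and 16.7 FPKM with gefitinib and 7.32, 6.66 and 8.35 FPKM with saline and rose 1.92-fold (adjusted p = 0.0241). The pseudogene Gstm2-ps1 had 35.8, 54.1 and 73.9 FPKM with gefitinib and 18.3, 21.3 and 13.98 FPKM with saline. Gm3776 had 9.62, 44.6 and 22.4 FPKM with gefitinib and 0.935, 0.438 and 0.664 FPKM with saline. Both rose, and neither overlapped between groups. Near-identical copies in both clusters may share reads, so the split among Gsta1, Gsta2 and Gm3776 and among the Gstm genes is uncertain. Gstp1, of the pi class, had 778, 1076 and 1362 FPKM with gefitinib and 936, 1492 and 1234 FPKM with saline, with overlap. The list was called in 3 members without gefitinib sample 1, in 1 without gefitinib sample 2, in 1 without gefitinib sample 3, in 2 without saline sample 1 and in 0 without saline sample 2 or saline sample 3.

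The list of CAR and PXR targets shares members with the transferases. Of 39 CAR and PXR targets 5 rose and 0 fell, against 0.547% and 0.591% of all tested genes. Of the 5, 3 were the transferases Gsta1, Gsta2 and Gstm3. DESeq2 called 8 targets higher and 1 lower, and 454 and 410 of all 18113 tested genes. The list had 2 rises without gefitinib sample 1, 1 without gefitinib sample 2 or gefitinib sample 3, 4 without saline sample 1, and 0 without saline sample 2 or saline sample 3. Cyp2b10, a standard CAR target, had 3.59, 0.742 and 3.07 FPKM with gefitinib and 0.512, 1.57 and 0.952 FPKM with saline. Cyp3a11, a standard PXR target, had 1004, 907 and 1175 FPKM with gefitinib and 751, 939 and 999 FPKM with saline. The groups of both overlapped, and neither passed. Of 47 tested Cyp1, Cyp2 and Cyp3 enzymes 1 fell and 0 rose. Cyp2d40 had 6.06, 4.61 and 5.09 FPKM with gefitinib and 14.7, 13.5 and 10.1 FPKM with saline, a 2.49-fold fall (adjusted p = 0.047), with reads that may be shared among the Cyp2d genes. Slco1a4, an organic anion uptake transporter, had 22.9, 31.9 and 24.5 FPKM with gefitinib and 9.73, 4.42 and 7.49 FPKM with saline, and rose. Ephx1, which opens epoxides, had 275, 313 and 307 FPKM with gefitinib and 225, 163 and 159.5 FPKM with saline, and rose. Tpmt, the methyltransferase of thiopurine drugs, had 32, 22.2 and 24.2 FPKM with gefitinib and 7.91, 9.34 and 15.3 FPKM with saline and rose 2.34-fold (adjusted p = 0.0498). Ugdh, which makes the sugar donor of glucuronidation, rose 2.01-fold, and Ptgr1, a reductase of reactive lipid products, rose 3.22-fold, both in no list. Of 31 NRF2 targets 0 were called by edgeR, 10 at an unadjusted p under 0.05, and 3 higher and 0 lower by DESeq2. In all, 11 were higher in all 3 gefitinib samples and 1 lower, against 9.71% and 10.2% of all tested genes. The median was 0.30. Nqo1, a quinone reductase of that list, had 3.54, 4.25 and 2.29 FPKM with gefitinib and 1.68, 1.48 and 1.87 FPKM with saline.

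Lipid and carbohydrate metabolism had scattered calls. Chka, choline kinase, the first step of phosphatidylcholine synthesis, had 3.68, 3.804 and 4.43 FPKM with gefitinib and 10.03, 12.8 and 14.9 FPKM with saline, a 3.27-fold fall (log2 -1.71 ± 0.20, adjusted p = 0.0101). Plpp1, a lipid phosphate phosphatase, had 0.5798, 1.17 and 0.991 FPKM with gefitinib and 4.0, 4.46 and 5.45 FPKM with saline and fell 5.23-fold (adjusted p = 0.0174). Its paralog Plpp2 had 15.4, 20.9 and 16.9 FPKM with gefitinib and 9.62, 9.503 and 9.18 FPKM with saline and rose 1.82-fold. Smpd3, a neutral sphingomyelinase, had 0.544, 0.869 and 0.935 FPKM with gefitinib and 0.0753, 0.121 and 0.127 FPKM with saline and rose 6.89-fold (adjusted p = 0.0118). Smpd3 overlaps Prmt7 on the opposite strand. The elongase Elovl6 had 2.34, 2.597 and 3.54 FPKM with gefitinib and 1.21, 1.09 and 0.726 FPKM with saline, the 1 call among 29 fatty acid synthesis genes. Thrsp, a lipogenic nuclear protein, had 19.5, 19.8 and 16.1 FPKM with gefitinib and 6.79, 3.46 and 3.38 FPKM with saline and did not pass. G0s2, an inhibitor of fat breakdown in lipid droplets, had 34.3, 28.3 and 26.2 FPKM with gefitinib and 76.5, 92.8 and 217 FPKM with saline and fell 4.48-fold. Of 32 cholesterol genes 0 were called by edgeR, 15 at an unadjusted p under 0.05, and 3 higher and 1 lower by DESeq2. In all, 9 were higher in all 3 gefitinib samples and 3 lower, against 9.71% and 10.2% of all tested genes. The median was 0.33. Tmem97, a sterol-responsive binding protein in no list, had 49.9, 47.04 and 51.4 FPKM with gefitinib and 33.3, 29 and 27.97 FPKM with saline and rose 1.59-fold (adjusted p = 0.0174). Among 23 bile acid genes the 1 call was Cyp7a1, which starts the classic route to bile acids, with 37.1, 81.05 and 36.2 FPKM with gefitinib and 12.5, 5.22 and 9.47 FPKM with saline.

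In carbohydrate metabolism, Pklr, liver pyruvate kinase, had 34.2, 35.7 and 34.1 FPKM with gefitinib and 21.1, 14.8 and 14.2 FPKM with saline and rose 2.02-fold. Tkfc, which phosphorylates the glyceraldehyde of fructose breakdown, had 48.04, 76.9 and 60.9 FPKM with gefitinib and 30.98, 36.1 and 29.7 FPKM with saline and rose 1.85-fold (adjusted p = 0.047). Ppp1r3b, which targets a phosphatase to glycogen, had 3.87, 6.67 and 6.26 FPKM with gefitinib and 12.5, 16.4 and 16.6 FPKM with saline and fell 2.82-fold (adjusted p = 0.0174). These 3 were the calls among 37 glucose genes. The list had 1 call without gefitinib sample 1, and 0 without gefitinib sample 2, gefitinib sample 3, saline sample 2 or saline sample 3. Tkfc and Pklr each overlap coding genes on the opposite strand, and Tymp overlaps coding genes on both. Tymp, thymidine phosphorylase, had 52.98, 42.8 and 60.5 FPKM with gefitinib and 86.7, 95.02 and 87.2 FPKM with saline and fell 1.78-fold. Entpd5, a nucleotidase, had 38.97, 35.6 and 40.2 FPKM with gefitinib and 21.3, 21.8 and 19.8 FPKM with saline and rose 1.77-fold. The mitochondrial chaperone subunit Clpx, at 62.8, 43.8 and 61.6 FPKM with gefitinib and 98.8, 113 and 108 FPKM with saline, fell 1.96-fold. Of 60 urea cycle and amino acid genes 0 were called by edgeR, 6 at an unadjusted p under 0.05, and 0 higher and 1 lower by DESeq2. Of 43 fatty acid oxidation genes 0 were called, 6 at an unadjusted p under 0.05, and 0 higher and 0 lower by DESeq2. Of 31 insulin and growth hormone axis genes 0 were called, 6 at an unadjusted p under 0.05, and 0 higher and 1 lower by DESeq2.

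Carriers changed in both directions, and the called genes of the iron, copper, zinc and heme list rose. Slc20a1, a sodium phosphate carrier, had 7.73, 8.85 and 7.37 FPKM with gefitinib and 4.03, 3.18 and 4.0 FPKM with saline, a 2.07-fold rise (log2 1.05 ± 0.12, adjusted p = 0.0101). Slc13a3, a dicarboxylate carrier, had 3.27, 4.65 and 4.12 FPKM with gefitinib and 2.41, 2.22 and 2.14 FPKM with saline and rose 1.71-fold, and Slc5a6, a vitamin carrier, rose 2.45-fold. Slc39a8, a zinc and manganese importer, had 2.04, 2.05 and 2.48 FPKM with gefitinib and 3.79, 3.01 and 3.56 FPKM with saline and fell 1.62-fold (adjusted p = 0.0276). Slc45a3 had 6.197, 6.08 and 7.23 FPKM with gefitinib and 13.4, 17.03 and 18.96 FPKM with saline and fell 2.62-fold (adjusted p = 0.0126). Hfe, a regulator of hepcidin, had 11.1, 12.8 and 11.2 FPKM with gefitinib and 6.87, 6.07 and 7.26 FPKM with saline and rose 1.68-fold (adjusted p = 0.0193). Hfe, and Slc39a8 and Bmp2, which fell, were not in the iron, copper, zinc and heme list. That list had 3 rises (Hp, Hpx and Steap4) and 0 falls among 41, against 0.547% and 0.591% of all tested genes. Its median was 0.02. It had 2 rises without gefitinib sample 1 or saline sample 1, 1 without saline sample 3, and 0 without gefitinib sample 2, gefitinib sample 3 or saline sample 2.

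Egfr, the target of gefitinib, had 32.8, 54.3 and 48.6 FPKM with gefitinib and 37.8, 19.1 and 26.8 FPKM with saline, with overlap between groups and no call (log2 0.65 ± 0.26, adjusted p = 0.291). Of 27 tested EGFR family, ligand and MAPK feedback genes 2 fell and 0 rose, against 0.591% and 0.547% of all tested genes. DESeq2 called 3 of the 27 lower. The list had 1 fall without gefitinib sample 3, and 0 without gefitinib sample 1, gefitinib sample 2, saline sample 2 or saline sample 3. Spry4, a feedback inhibitor of MAPK signalling, had 0.221, 0.457 and 0.687 FPKM with gefitinib and 1.52, 2.23 and 1.76 FPKM with saline, a 4.21-fold fall. Phlda1, induced by MAPK signalling, had 13.95, 16.5 and 16.7 FPKM with gefitinib and 22.3, 24.2 and 35.5 FPKM with saline and fell 1.801-fold (adjusted p = 0.0497). The MAPK phosphatase Dusp6 had 2.29, 3.51 and 3.72 FPKM with gefitinib and 4.57, 5.71 and 4.79 FPKM with saline, lower in all 3 gefitinib samples, and did not pass. Errfi1, a direct inhibitor of EGFR, had 83.2, 300.1 and 121 FPKM with gefitinib and 294, 184 and 265 FPKM with saline, with overlap. Among 23 immediate early factors Fos was the 1 fall, with 0.184, 0.229 and 0.309 FPKM with gefitinib and 1.31, 0.515 and 0.704 FPKM with saline.

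The glucocorticoid list, whose members hepatocytes transcribe under corticosterone, had a median log2 fold change of -0.57, with 2 falls and 1 rise among 23. Zbtb16, a transcription repressor, had 0.691, 1.03 and 0.845 FPKM with gefitinib and 4.38, 8.47 and 4.49 FPKM with saline and fell 7.06-fold (adjusted p = 0.00797). Tsc22d3, a leucine zipper protein that is a standard target, had 7.17, 11.8 and 9.37 FPKM with gefitinib and 22.6, 19.1 and 21.4 FPKM with saline and an adjusted p of 0.0686. Fkbp5 had 8.63, 7.38 and 6.31 FPKM with gefitinib and 5.1, 8.21 and 13.9 FPKM with saline, with overlap. Cdkn1a, the cell cycle inhibitor p21, had 2.07, 2.403 and 1.94 FPKM with gefitinib and 5.94, 8.98 and 17.3 FPKM with saline.

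Cell cycle genes were read at low levels. Of 54 tested genes 2 rose and 1 fell, against 0.547% and 0.591% of all tested genes. The median log2 fold change was 0.62. In all 3 gefitinib samples 15 were higher and 4 lower, against 9.71% and 10.2% of all tested genes. DESeq2 called 9 higher and 4 lower. With a mean of at least 5 FPKM required, 4 of the genes were tested and their median was -0.11. The list had 3 rises without gefitinib sample 1 or saline sample 1, and 0 without gefitinib sample 2, gefitinib sample 3, saline sample 2 or saline sample 3. Ccnd1, cyclin D1, had 3.76, 5.78 and 5.16 FPKM with gefitinib and 2.03, 1.17 and 1.103 FPKM with saline and rose 3.31-fold. Ccnb1, cyclin B1, had 0.271, 0.483 and 0.715 FPKM with gefitinib and 0.0837, 0.0135 and 0.0245 FPKM with saline and rose 10.9-fold (adjusted p = 0.0377). The proliferation marker Mki67 had 0.153, 0.683 and 0.656 FPKM with gefitinib and 0.181, 0.153 and 0.112 FPKM with saline, with overlap. Cenpm, a centromere protein in no list, had 5.49, 5.45 and 3.67 FPKM with gefitinib and 1.21, 1.47 and 1.116 FPKM with saline, a 3.72-fold rise (log2 1.90 ± 0.22, adjusted p = 0.0101). Sgo1, which guards sister chromatid cohesion, had 7, 22 and 34 counts with gefitinib and 0 in every saline sample, at least 6.5-fold higher against a floor of 3 counts per library. The histone gene H1f2 had 17.6, 27.8 and 20.2 FPKM with gefitinib and 7.46, 9.199 and 8.02 FPKM with saline and rose 2.55-fold. H2bc4, another histone gene, had 36.2, 24 and 31.3 FPKM with gefitinib and 56.5, 57.4 and 58.6 FPKM with saline and fell 1.94-fold. Reads of histone copies may be shared.

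Circadian clock genes changed in both directions. The falls included activators (Arntl, Npas2) and a repressor of the outputs (Nfil3), and the rise was of a repressor (Per3). The clock runs on activators (Arntl and Npas2 or Clock) that drive repressors (Per and Cry) and output factors (Dbp, Tef), with Ror receptors and Nfil3 feeding back on the activators and outputs. Of 21 tested genes 4 fell and 1 rose, against 0.591% and 0.547% of all tested genes. The median log2 fold change was 0.30. In all 3 gefitinib samples 10 were higher and 6 lower, against 9.71% and 10.2% of all tested genes. The hour at which each liver was taken was not known here. Npas2 had 0.13, 0.06796 and 0.0781 FPKM with gefitinib and 0.494, 0.898 and 0.575 FPKM with saline, a 7.203-fold fall (log2 -2.85 ± 0.43, adjusted p = 0.0196). Arntl had 0.853, 0.709 and 1.13 FPKM with gefitinib and 2.18, 2.44 and 2.89 FPKM with saline and fell 2.88-fold (adjusted p = 0.0202). Nfil3, a repressor of the output genes, had 7.85, 6.18 and 11.3 FPKM with gefitinib and 20.9, 23.1 and 25.9 FPKM with saline and fell 2.85-fold (adjusted p = 0.0435). The receptor Rora had 2.103, 2.25 and 2.51 FPKM with gefitinib and 3.32, 3.79 and 3.24 FPKM with saline and fell 1.56-fold (adjusted p = 0.0288).

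On the repressor and output side, Per3 had 2.803, 3.09 and 2.38 FPKM with gefitinib and 0.805, 0.267 and 0.266 FPKM with saline, a 6.05-fold rise (adjusted p = 0.0461). Per3 overlaps Camta1 on the same strand. Dbp, the output factor with the widest daily swing, had 36.1, 26.1 and 17.8 FPKM with gefitinib and 7.58, 2.35 and 1.08 FPKM with saline, higher in all 3 gefitinib samples, and did not pass. Ciart, a repressor of the activators, had 3.43, 3.36 and 1.09 FPKM with gefitinib and 0.6002, 0.674 and 0.566 FPKM with saline. Per2 had 2.701, 3.599 and 2.03 FPKM with gefitinib and 1.76, 1.23 and 1.29 FPKM with saline. Neither passed, and both were higher in all 3 gefitinib samples. Clock had 1.64, 1.83 and 2.01 FPKM with gefitinib and 2.54, 2.86 and 2.56 FPKM with saline and an adjusted p of 0.0579. The list had 1 call without gefitinib sample 1 or gefitinib sample 3, 5 without saline sample 1, and 0 without gefitinib sample 2, saline sample 2 or saline sample 3.

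The promoter windows of 3 of these called genes are shown because each holds a clock motif. The windows run from 250 bases before to 50 bases after the start of transcription in RefSeq (GRCm38.p6), and a window was found for each of the 5 called clock genes. Motifs searched on both strands were the E-box CACGTG, the D-box TTATGNAA and the nuclear receptor half-site AGGTCA, and none overlapped another here. They are held by 7.15%, 3.38% and 16.3% of all 32851 windows. Capitals mark D-boxes in Per3, 205 and 158 bases before the start, and half-sites in Arntl (its second start, 32 bases into the transcript) and Nfil3 (reverse strand, 12 bases before the start). Npas2 and Rora held none of the 3 motifs in their windows.
Per3, chr4:151044616-151044915, minus strand: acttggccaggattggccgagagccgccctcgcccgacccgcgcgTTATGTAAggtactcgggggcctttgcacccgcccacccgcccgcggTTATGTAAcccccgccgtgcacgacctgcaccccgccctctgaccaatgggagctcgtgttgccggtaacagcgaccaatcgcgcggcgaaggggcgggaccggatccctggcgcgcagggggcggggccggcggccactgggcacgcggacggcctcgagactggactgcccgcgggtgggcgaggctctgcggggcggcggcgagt
Arntl, chr7:113207261-113207560, plus strand: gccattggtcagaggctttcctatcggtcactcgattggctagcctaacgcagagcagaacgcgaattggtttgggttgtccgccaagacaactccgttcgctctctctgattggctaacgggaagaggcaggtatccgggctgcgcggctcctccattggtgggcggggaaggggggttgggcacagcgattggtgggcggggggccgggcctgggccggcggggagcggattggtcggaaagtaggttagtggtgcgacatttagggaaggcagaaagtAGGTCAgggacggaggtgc
Nfil3, chr13:52980990-52981289, minus strand: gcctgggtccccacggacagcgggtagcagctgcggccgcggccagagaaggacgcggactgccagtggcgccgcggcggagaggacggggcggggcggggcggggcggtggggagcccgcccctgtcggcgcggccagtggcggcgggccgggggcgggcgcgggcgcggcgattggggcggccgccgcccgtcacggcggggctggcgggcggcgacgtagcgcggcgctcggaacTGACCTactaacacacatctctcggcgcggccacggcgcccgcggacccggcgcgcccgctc
A match is a description of these letters only.

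**Figure D4:**
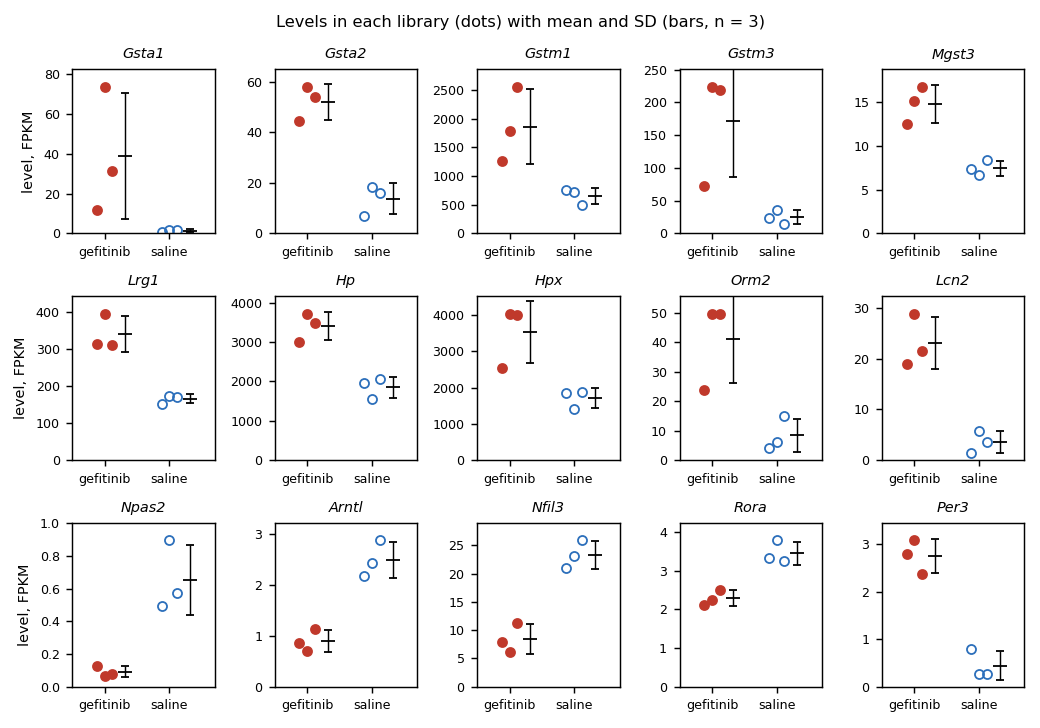
Levels in FPKM of 15 called genes in each gefitinib (filled red, left) and saline (open blue, right) sample, with mean and SD as black bars (n = 3 each). The upper row holds glutathione transferases, the middle row acute phase genes and the lower row clock genes. The groups do not overlap in any panel.

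Stress and housekeeping machinery held few calls. Among 42 integrated stress and unfolded protein response genes, Herpud1, a protein of endoplasmic reticulum degradation, was the 1 call, with 55.7, 75.04 and 55.8 FPKM with gefitinib and 150.0, 187 and 157 FPKM with saline, a 2.75-fold fall (adjusted p = 0.0293). Of 58 cytosolic ribosomal protein genes 0 were called by edgeR, 0 at an unadjusted p under 0.05, and 0 higher and 0 lower by DESeq2. Of 51 nuclear respiratory chain genes 0 were called, 3 at an unadjusted p under 0.05, and 0 higher and 0 lower by DESeq2. Of 42 mitochondrial ribosome genes 0 were called, 0 at an unadjusted p under 0.05, and 0 higher and 0 lower by DESeq2. Of 34 heat shock genes 0 were called, 1 at an unadjusted p under 0.05, and 0 higher and 0 lower by DESeq2, and of 25 hypoxia genes 0, 4 at an unadjusted p under 0.05, and 0 higher and 2 lower by DESeq2. Medians of these 5 lists lay between -0.12 and 0.03. Male and female liver genes had the lowest median of the function lists, -0.71, and 0 of 36 were called by edgeR, 13 at an unadjusted p under 0.05, and 2 higher and 4 lower by DESeq2. Mup3, a major urinary protein of male liver, had 3265, 2431 and 3256 FPKM with gefitinib and 5293, 5647 and 5492 FPKM with saline, and did not pass. Mup1 ranged widely within groups, with 2795, 2116 and 1358 FPKM with gefitinib and 743, 7235 and 6617 FPKM with saline, and reads of Mup copies may be shared. Serpinb6b, a serine protease inhibitor, had 0.588, 1.19 and 1.37 FPKM with gefitinib and 0.355, 0.281 and 0.271 FPKM with saline and rose 3.29-fold. The keratin Krt8 had 99.2, 88.4 and 95.8 FPKM with gefitinib and 62.3, 49.9 and 43.01 FPKM with saline and rose 1.78-fold (adjusted p = 0.0351). Gemin4, of the complex that assembles splicing particles, had 1.698, 1.55 and 1.41 FPKM with gefitinib and 0, 0.0123 and 0.00796 FPKM with saline, the 1 call among 45 splicing genes, with few counts in saline and an overlap with Glod4 on the same strand. Snhg11, a noncoding host of small nucleolar RNAs, had 1.15, 2.05 and 2.46 FPKM with gefitinib and 0.355, 0.282 and 0.379 FPKM with saline and rose 5.34-fold. Adgrv1, a large adhesion receptor, had 0.167, 0.0545 and 0.0803 FPKM with gefitinib and 1.44, 0.747 and 0.563 FPKM with saline and fell 9.15-fold.

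**Figure D5:**
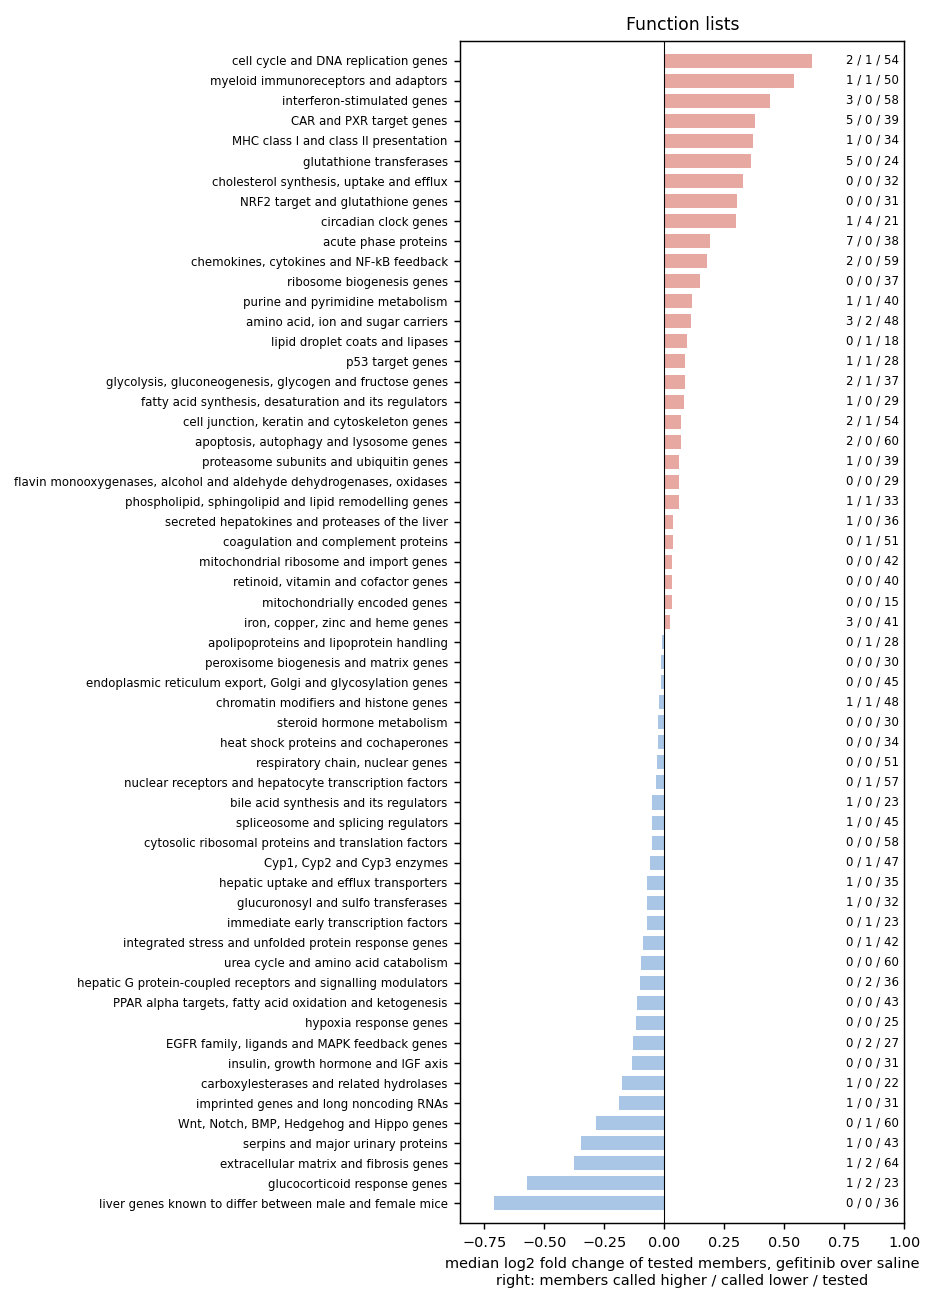
The 58 function lists are ordered by the median log2 fold change of their tested members, gefitinib over saline (bars, x axis). The numbers at the right give members called higher, called lower and tested. Acute phase proteins have the most rises by edgeR (7), glutathione transferases and CAR and PXR targets 5 each.

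Among 264 symbol families with at least 8 tested members, 6 had at least 3 calls, a number that large families reach more easily. Their counts stand beside 0.547% of all tested genes higher and 0.591% lower, and no family was tested against those shares. The Tmem family (192 tested) had 4 rises and 0 falls. Tmem176a and Tmem176b, paired ion channels of immune and liver cells that overlap on opposite strands of chromosome 6, both rose. Tmem176a had 57.4, 78.1 and 73.9 FPKM with gefitinib and 36.6, 30.6 and 32.1 FPKM with saline, a 2.04-fold rise. Tmem176b had 93.4, 129 and 120.1 FPKM with gefitinib and 60.3, 60.1 and 58.9 FPKM with saline, a 1.84-fold rise. Reads of the overlap cannot be assigned to either without strand. The Slc family (317, with Slco genes) had 4 rises and 3 falls, and the Cd family (85) 4 rises and 2 falls. The Cyp family (90) had 1 rise and 2 falls with a median of -0.25. The Gst family (24) had 5 rises and 0 falls, and the Gpr family (35) 2 rises and 1 fall. Gpr146, a receptor that raises plasma cholesterol in mice, had 14.04, 14 and 13.1 FPKM with gefitinib and 7.48, 7.59 and 6.001 FPKM with saline and rose 1.89-fold (adjusted p = 0.0124).

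Pathway annotation in the deposited table grouped the same called genes in another way, for pathways chosen after their values were seen. The counts stand beside 0.547% of all tested genes higher, 0.591% lower and 1.14% in either direction, and no pathway was tested against those shares. Metabolism of xenobiotics by cytochrome P450 had 6 rises and 0 falls among 57 tested genes. Glutathione metabolism had 5 rises and 1 fall among 60, and drug metabolism by other enzymes 6 rises and 1 fall among 82. Gsta1, Gsta2, Gstm1, Gstm3 and Mgst3 were among the rises of each, so these counts largely repeat those of the transferases. Rap1 signalling had 0 rises and 5 falls among 170. Endocytosis had 0 rises and 4 falls among 238, and MAPK signalling 2 rises and 5 falls among 250. Tek, Kdr and Flt4, of the endothelial list, were among the falls of both Rap1 and MAPK signalling.

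Among called genes in no list, several further ones had the smallest adjusted p. Plxnb1, a semaphorin receptor, had 6.38, 9.03 and 7.28 FPKM with gefitinib and 3.46, 3.14 and 3.17 FPKM with saline, a 2.24-fold rise (adjusted p = 0.0101). Uap1l1 had 3.81, 6.84 and 3.96 FPKM with gefitinib and 1.69, 1.46 and 1.21 FPKM with saline and rose 3.22-fold (adjusted p = 0.011). Gnat1, the transducin subunit known from rod photoreceptors, had 2.02, 2.41 and 2.34 FPKM with gefitinib and 0.679, 0.673 and 0.417 FPKM with saline and rose 3.68-fold (adjusted p = 0.0182). Igsf23, an immunoglobulin superfamily member, had 0.143, 0.0698 and 0.0226 FPKM with gefitinib and 3.62, 1.28 and 4.62 FPKM with saline and fell 39.7-fold (adjusted p = 0.0101). Fam167b had 2.51, 2.73 and 2.39 FPKM with gefitinib and 8.31, 5.78 and 9.65 FPKM with saline and fell 3.19-fold (adjusted p = 0.011). Tedc2, a protein of the centriole, had 7.17, 10.99 and 5.82 FPKM with gefitinib and 20.1, 18.5 and 23.2 FPKM with saline and fell 2.66-fold (adjusted p = 0.0163). Cemip2, a hyaluronan-degrading protein, had 0.298, 0.382 and 0.403 FPKM with gefitinib and 0.984, 0.834 and 1.34 FPKM with saline and fell 3.02-fold (adjusted p = 0.0165). Mug4-ps, a murinoglobulin pseudogene, had 28.2, 35.98 and 30.2 FPKM with gefitinib and 54.8, 74.7 and 78.8 FPKM with saline and fell 2.29-fold, with reads that may come from its coding relatives. Rusc2 had 5.31, 5.17 and 5.53 FPKM with gefitinib and 7.59, 8.4 and 9.13 FPKM with saline and fell 1.62-fold. The noncoding Hectd2os had 5.37, 6.92 and 5.997 FPKM with gefitinib and 16.5, 16.01 and 13.2 FPKM with saline and fell 2.58-fold, and it overlaps the coding gene Hectd2 on the opposite strand.

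A few genes were read in 1 group alone. Of the 7 with 0 counts in every sample of 1 group and at least 10 in each of the other, 5 were read with gefitinib and 2 with saline, and 1 was called. Trim29, a tripartite motif protein, had 16, 29 and 16 counts with gefitinib and 0 with saline, at least 6.28-fold higher against a floor of 3 counts per library (adjusted p = 0.0127). Gata1, the erythroid and mast cell transcription factor, had 11, 15 and 12 counts with gefitinib, and Prss34, a mast cell and basophil protease, had 17, 10 and 12, against 0 with saline, and neither passed. The gene model Gm15267 had 15, 17 and 11 counts with gefitinib and 0 with saline. Gm22036 had 0 with gefitinib, against 17, 40 and 17 counts with saline, and Gm10389 had 0 with gefitinib, against 11, 11 and 11 with saline. These did not pass either. The floors cover counting error only.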

How the data were processed

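Liver RNA of 9 mouse samples was sequenced as 1 library each. Per the labels' protocols, RNA was taken up on columns and libraries were built with a SMARTer kit. The authors deposited raw counts per gene and FPKM, per the file headers, with GRCm38 and mm10 named in the submitters' processing notes. The sources used here name no aligner or counter and do not give the use of strand. Further called genes overlap coding genes, among them Ctsd, Lilr4b and Ugdh on the same strand. On the opposite strand these include Eng, Gpr182, G0s2, Psme1, Tpmt, Plpp1, Gpr146, Mmp12, Cd52, Hk3 and Slc5a6. Reads of such overlaps may be shared.

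Counts were fitted with edgeR 4.0.16 (R 4.3.3) on all 9 libraries, 3 groups, after filterByExpr and TMM scaling. The quasi-likelihood test had 6 residual degrees of freedom, with a common biological coefficient of variation of 0.351. The threshold was a p of 0.05 after Benjamini-Hochberg adjustment, and no fold minimum was set. Scripts were tested on simulated data. Within the gefitinib group and within the saline group, the chi-square of counts between replicates was at least 79.0 per degree of freedom. No replicate was thus a copy of another in its group. Other pairs of libraries were not compared in this way. Alternatives used limma 3.58.1, DESeq2 1.42.0, other filters and scalings, and left-out samples. Python 3.11.15 and matplotlib 3.10.9 made the tables and figures.

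Gene lists (77, of which 2318 symbols were found and 2250 tested) and this comparison were chosen with earlier results of these data known, and samples were grouped by their labels. Values in every sample were given for up to 4 called members of each list, for the 12 called genes of smallest p in each direction that were in no list, had a standard symbol and reached 1 FPKM, for genes read in 1 group alone with at least 10 counts in each sample, and for Egfr. Other called members of a list, and uncalled genes, were picked as examples after their values were seen. A gene can stand in several lists. Of the genes that met this rule, 1 is not reported here.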

Additional observations from a re-analysis of the deposited data

How the results depend on the processing

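Of the 206 calls (99 higher, 107 lower), 20 passed in every alternative in which they were tested, and none changed direction. The median ratio scaling (192 calls), total counts alone (171), the 6 libraries fitted alone (150) and leaving out muscle transcripts (214) stayed within 1.5 times of the main count, and total counts moved the median of all genes by 0.04 on the log2 scale. DESeq2 called 864 genes (454 higher, 410 lower), among them each of the 206. The count fell to 109 (55 and 54) with limma on log2(FPKM + 1), 136 (75 and 61) on log2(FPKM + 0.1), 82 (39 and 43) with no filter on low counts, and 99 (60 and 39) with a mean of at least 5 FPKM. The cause of these shifts was not tested. With the replicate number as a block 82 genes were called (38 and 44). The labels do not say that a number pairs samples, and correlations of same-numbered samples ran from -0.0756 to 0.0716. Leaving out 1 sample gave 32 to 171 calls, 20 to 95 higher and 12 to 90 lower, and 24 genes passed in all 9 such fits. The count was 75 without gefitinib sample 1, 32 without gefitinib sample 2, 52 without gefitinib sample 3, 61 without saline sample 2, 47 without saline sample 3, 122 without combined sample 2 and 127 without combined sample 3. Transcripts under 0.5 FPKM gave 11 rises and 11 falls among 5777 genes.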

Other observations

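Several genes of the major histocompatibility complex varied widely within groups. H2-T23, a nonclassical class I gene, had 6.39, 6.84 and 5.01 FPKM with gefitinib and 41.8, 30.3 and 6.26 FPKM with saline, with saline sample 3 near the gefitinib samples. H2-T22, its neighbour in the family, had 4.06, 5.82 and 5.12 FPKM with gefitinib and 15.9, 12.2 and 3.67 FPKM with saline, in the same order among saline samples. H2-Eb1, a class II chain, had 9.26, 4.96 and 0.213 FPKM with gefitinib and 5.34, 2.13 and 0.1402 FPKM with saline, lowest in sample 3 of each group. H2-Ab1, another class II chain, had 4.83, 5.41 and 3.12 FPKM with gefitinib and 3.99, 1.795 and 3.12 FPKM with saline, and H2-Aa had 4.57, 3.93 and 2.06 FPKM with gefitinib and 2.71, 1.19 and 1.96 FPKM with saline. The class II companion Cd74 had 38.1, 34.98 and 29.4 FPKM with gefitinib and 25.3, 14.6 and 25.5 FPKM with saline, higher in all 3 gefitinib samples. None of these 6 genes passed.

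Lipid oxidation and male liver genes also spread widely within a group. Cyp4a14, a fatty acid hydroxylase induced through PPAR alpha, had 151, 250.2 and 92.7 FPKM with gefitinib and 408, 61.1 and 604 FPKM with saline. Elovl3, an elongase with daily and sex-dependent levels, had 8.6, 3.15 and 29.7 FPKM with gefitinib and 26.2, 63.6 and 50.3 FPKM with saline. Hsd3b5, a steroid enzyme of male liver, had 27.8, 24.6 and 39.8 FPKM with gefitinib and 115, 40.8 and 30.3 FPKM with saline. The groups of all 3 overlapped, and none passed.

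By chromosome, against 1.14% of all tested genes, the share called was highest on chromosome 13 at 2.25% (8 higher and 8 lower of 711). Chromosome 9 followed with 2.10% (10 higher and 11 lower of 1000), its rises including Gsta1, Gsta2 and Gm3776, which may share reads. The lowest shares were 0 on Y and the mitochondrial chromosome, with 14 and 34 tested genes, and 0.546% on X. Differences between chromosomes were not tested.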
